A study of Drosophila melanogaster with 10 samples.

Results

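The Wnt ligand and receptor genes of Drosophila melanogaster, with the Wnt target naked cuticle, were examined in the deposited ATAC-seq summits of S2 cells. The 10 genes, of 13922 protein-coding genes in the annotation, were chosen by symbol. The 6 ligand genes were wg, Wnt2, Wnt4, Wnt5, Wnt6 and Wnt10, the 3 receptor genes were fz, fz2 and fz3, and the target was nkd. A summit was assigned to a gene when it lay inside the annotated gene or within 2000 bp of it, and 97 of the 39806 summits in the list met this rule, each for 1 of the genes.

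ATAC-seq cuts accessible DNA with the Tn5 transposase, and a summit marks where the signal of a called peak is locally highest. S2 is an embryo-derived, hemocyte-like cell line. The 10 libraries came from S2 cells after 5 days with dsRNA, with 2 libraries in each of 5 groups: a LACZ control, GAF (a GA-repeat binding factor encoded by Trl), BAP170 (a subunit of the PBAP remodeler), NURF301 (a subunit of the NURF remodeler), and NURF301+BAP170. All groups received dsRNA, and by its title the series concerns GAF acting with PBAP and NURF in transcription. Peaks had been called once on all libraries together, so no value belongs to a single condition or replicate, every value below is a description of 1 pooled list without replicate error, and no test between conditions could be made. Each summit has a score, −log10 of the q value given by the peak caller, with a median of 21.9 over the list. The score grows with read depth and copy number as well as with accessibility, and the depth of each library is unknown. All 6 hemocyte genes checked had a summit, as did 72.8% of all protein-coding genes. Only srp and Pvr were above 126, the median strongest score of all protein-coding genes with a summit. The scores at srp and Pvr reached 577 and 513, while Hml, NimC1, eater and He had none above 40.4.

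In the canonical Wnt pathway a secreted, lipid-modified ligand binds a Frizzled receptor and the coreceptor Arrow. This blocks the complex of Axin, APC and kinases that destroys Armadillo, the fly β-catenin, which then enters the nucleus and acts with Pangolin, the fly TCF, on target genes. Wingless, the product of wg, patterns segments and imaginal discs. Naked cuticle is induced by the pathway in embryos and dampens it by binding Dishevelled. An accessible site is not a measure of transcription.

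The target gene nkd had the densest set of summits, and the receptor gene fz2 had the strongest single summit. The ligand genes had 0 to 6 summits each, beside a median of 3 over all protein-coding genes, and none scored above 69.7. The nkd gene held 45 of the 97 summits (46.4%), the 3 receptors 36 and the 6 ligands 16. The strongest summit of any ligand had a score of 69.7, at wg, against 157 at fz, 263 at nkd and 446 at fz2. The third receptor gene, fz3, was unlike the other 2, with a single summit of score 5.36. Only Wnt2 had no summit. At least 1 summit was found at 9 of the 10 genes, while 72.8% of all protein-coding genes had 1 by the same rule. The strongest summit was at or above the median score of the list at 6 of the 10 genes, beside 63.3% of all protein-coding genes. With 10 genes, neither share was far from its background.

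**Figure D1:**
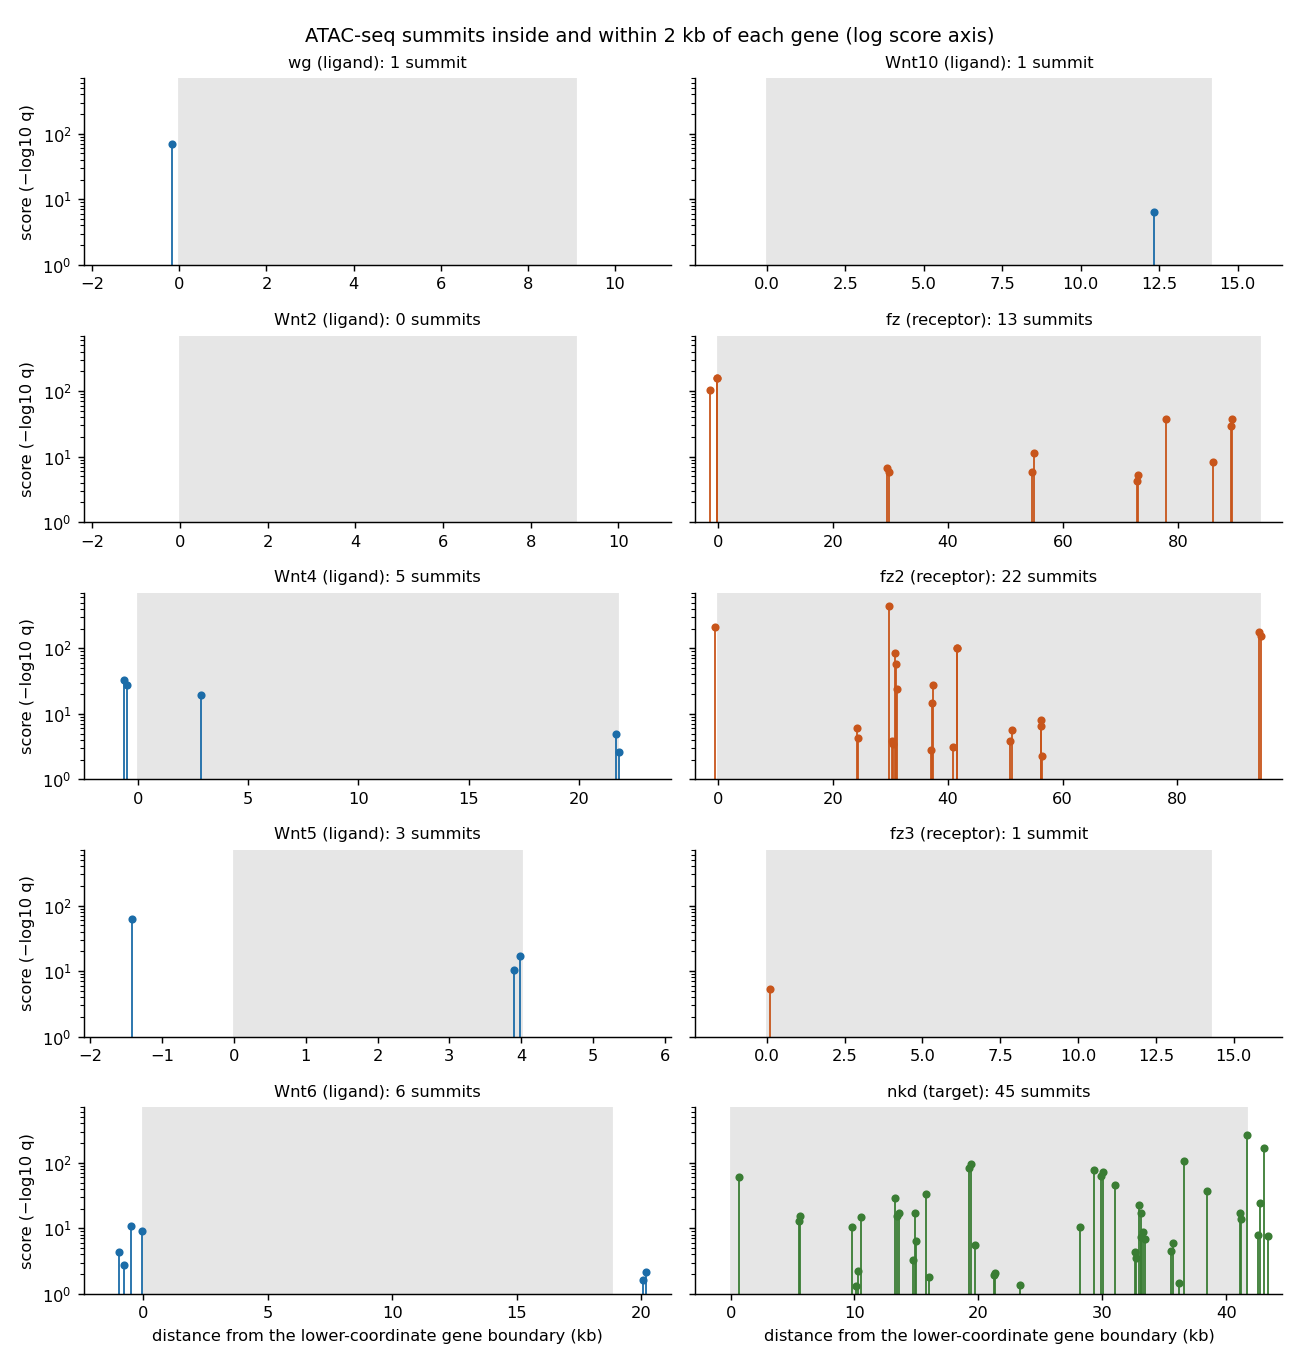
Summits at the 10 genes. The x axis is the distance in kb from the lower-coordinate boundary, with the gene shaded, the y axis is the score on a log scale, and each stem is 1 summit: nkd holds 40 along its body and 5 beyond its higher boundary, fz2 22 and fz 13 in separate groups, and the shaded bodies of wg, Wnt2 and Wnt6 hold none.

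The gene table gives boundaries without strand, so start sites could not be told from gene ends, and positions are given from the lower- or higher-coordinate boundary. A summit within 500 bp of either boundary was present at 8 of the 10 genes, all but Wnt2 and Wnt10, beside 60.0% of all protein-coding genes. At 7 of these 8 genes only 1 boundary had such a summit, and at fz2 both did.

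Among the ligands, wg (2L, 7307159 to 7316265, dm6) had 1 summit, at position 7306992. It lay 167 bp below the lower boundary and had a score of 69.7. The gene body held no summit, and the next one above wg was 8170 bp past the higher boundary, with a score of 3.02. The whole of wg thus sat in a stretch of 17.4 kb between neighboring summits. Over the chromosome arms 96.2% of such stretches were shorter, and their median was 358 bp. A stretch that covers a whole gene must be longer than the gene, 9.11 kb for wg. A high share was therefore set by that choice and does not show that the stretch is rare. The number at wg was below the median of 5 in the 765 genes of similar length, taken as 0.8 to 1.25 times that of the gene, of which 14.1% had fewer.

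Wnt6 (2L, 7333714 to 7352542) had a similar layout at much lower scores. Its summit nearest to a boundary, at 7333672, lay 42 bp below the lower boundary with a score of 9.21. In the same flank, 3 more at 513, 771 and 984 bp from the boundary had scores of 10.7, 2.71 and 4.36. The flank above Wnt6 held 2 summits, with scores of 1.62 and 2.14. The 18.8 kb body held none.

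Wnt4 (2L, 7255419 to 7277171), which encodes another secreted ligand, had 5 summits in 3 peaks. The pair at its higher boundary was weak, with a score of 4.98 at 51 bp inside and 2.62 at 52 bp outside. The stronger ones were at the lower end. Those 504 and 629 bp below the lower boundary had scores of 27.4 and 33.1, and that at 7258283, inside Wnt4, had a score of 19.6. The latter lay 85 bp from a boundary of CG31909, a protein-coding gene nested in Wnt4. A stretch of 18.8 kb that took in 86.6% of Wnt4 was free of summits.

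Wnt10 (2L, 7363379 to 7377528) had 1 summit with a score of 6.31, inside the gene at 7375712. It was 1816 bp from the higher boundary, and neither boundary had a summit within 500 bp. A stretch of 21.8 kb without a summit took in 87.2% of Wnt10.

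Wnt5 (X, 18501401 to 18505405), whose product guides axons through the Derailed receptor, had 3 summits. Those at 25 and 108 bp inside its higher boundary had scores of 17.0 and 10.4. The third, with a score of 62.7, lay 1414 bp below the lower boundary and 1 bp from the boundary of Pgant7, so the strongest value counted for Wnt5 was closer to a neighbor.

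Wnt2 (2R, 9494166 to 9503188) had no summit inside or within 2000 bp. The nearest summits were 14076 bp below it, with a score of 34.2, and 14467 bp above it, with a score of 1.62. The stretch of 37.6 kb that covered Wnt2 was longer than 98.5% of stretches between neighboring summits. As at wg, a high share was set by choosing a stretch that covers the gene. A boundary of brp, which encodes the Bruchpilot protein of synapses, lies 577 bp from Wnt2. Among 761 genes of similar length, 14.3% also had no summit.

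Wnt4, wg, Wnt6 and Wnt10 lie side by side on 2L. From 2000 bp below Wnt4 to 2000 bp above Wnt10 they span 126 kb and hold 26 summits, including those in the gaps beyond 2000 bp from a gene. The summits were mostly between the genes. The 58.3 kb of gaps held 21, or 3.60 per 10 kb, and the 63.8 kb of gene bodies held 3, or 0.470 per 10 kb. On 2L as a whole the order was the other way, with 3.80 per 10 kb inside protein-coding genes and 2.31 outside.

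The strongest summit of the cluster, with a score of 143, stood at 7281653 in the gap between Wnt4 and wg, 4482 bp above the higher boundary of Wnt4. Farther toward wg, a peak with 6 summits ran from 7294991 to 7296229, with scores from 13.9 to 55.3. It lay 10930 to 12168 bp below the lower boundary of wg. Between wg and Wnt6, 3 summits 8825 to 9405 bp above the higher boundary of wg had scores of 18.5, 39.8 and 37.4. These groups lay beyond the 2000 bp rule and are not among the 97. No regulatory element was matched to a summit here.

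**Figure D2:**
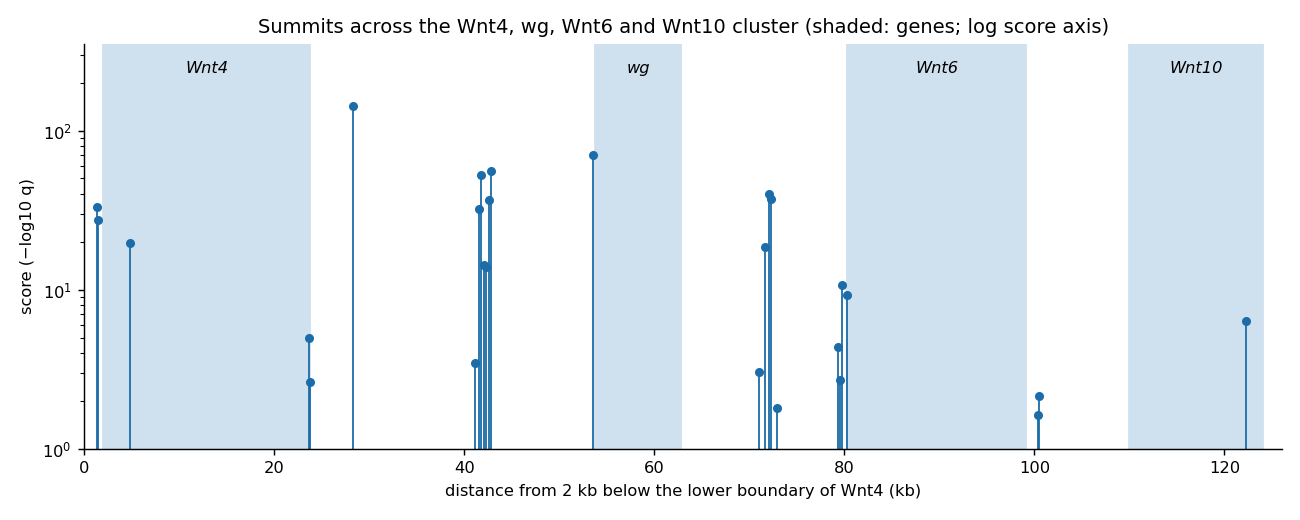
The 26 summits of the 126 kb cluster on 2L. The x axis is the distance in kb from 2000 bp below Wnt4, genes are shaded, and the y axis is the score on a log scale: 21 summits lie in the unshaded gaps and 3 inside genes.

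The cluster was neither rich nor empty for its arm. It held 2.06 summits per 10 kb, below the 3.28 per 10 kb of all of 2L. In 186 windows of 126 kb laid end to end along 2L the median was 32 summits, with 15 and 60.5 at the 25th and 75th percentiles, and 37.1% of the windows had fewer than 26. Its strongest score was low beside them, as only 19.4% of the windows had a lower maximum.

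Among the receptors, fz (3L, 14274343 to 14368639), which also sets planar cell polarity, had 13 summits in 8 peaks. The strongest pair lay 78 and 171 bp below its lower boundary, at 14274265 and 14274172, with scores of 157 and 156. Another, 1394 bp below it, had a score of 105. Of the 10 summits inside fz none was above 38.0, and 6 had scores under 10. Of 4 equal parts of fz from the lower boundary, the first held no summit, the next pair held 2 each and the last held 6. The summits at 14328896 and 14329255 in the body of fz, with scores of 5.76 and 11.4, lay 450 and 91 bp from the nested gene CG13482.

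The fz2 gene (3L, 19140975 to 19235373) encodes the high-affinity Wingless receptor and is nearly as long as fz. It had 22 summits in 9 peaks, 6 of them with a score of 100 or more. The pair at its higher boundary, at 19235140 and 19235473, had scores of 180 and 152, and lay 233 bp inside and 100 bp outside. The highest score of any member, 446, was inside fz2 at 19170711, 29.7 kb above the lower boundary. That summit lay 13287 bp from a boundary of a noncoding gene nested in fz2. Among all protein-coding genes with a summit, 95.3% had a lower maximum. Close to it, a peak of 5 summits between 19171336 and 19172103 had scores up to 84.6, and a further peak had scores of 102 and 101 at 19182535 and 19182644. The second of 4 equal parts of fz2 from the lower boundary thus held 14 of the 20 internal summits, and the first held none. At the lower end, 499 bp outside fz2, a single summit had a score of 214. Weak sites stood beside the strong ones, and 11 of the 22 summits had a score under 10. The longest stretch of fz2 without a summit was 37.7 kb, up to the pair at the higher boundary.

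The fz3 gene (X, 769945 to 784222), a Wingless-induced receptor with weak signaling activity, had 1 summit. It lay 100 bp inside the lower boundary, at 770045, with a score of 5.36. Only 3.63% of all genes with a summit had a lower maximum. A stretch of 22.9 kb without a summit took in 99.3% of fz3, and the next summit above stood 8707 bp past the gene with a score of 1.54.

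The ligands and receptors thus differed in level but overlapped. With Wnt2 set to 0, the median of the strongest score was 21.9 over the 6 ligands and 157 over the 3 receptors. The receptor median is the value of fz alone, and fz3 fell below every ligand that had a summit. The median number was 2 for ligands and 13 for receptors, but fz and fz2 are the longest members. The strongest score was not matched for length either. Its medians over genes of similar length were 197 for fz, 192 for fz2 and 167 for fz3. Of the receptors only fz2 was above its own, and no ligand was. Per 10 kb of gene and flanks, the ligand median was 1.35 and the receptor median 1.32. Genes are not replicates of a condition, and no test was made of either difference.

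The 41.7 kb of nkd (3L, 19003741 to 19045449) held 40 summits, and 5 more lay within 2000 bp above its higher boundary. Together they fell into 19 peaks. The strongest, with a score of 263, was at 19045450, 1 bp above the higher boundary. A second, with a score of 166, lay 1382 bp above it, at 19046831. In the body of nkd the highest scores were 107 at 19040356, 94.9 at 19023119, 83.0 at 19023001, 77.8 at 19033095 and 73.5 at 19033788. The last of these lay inside a nested noncoding gene, lncRNA:CR45940, as did a summit with a score of 63.6 at 19033613. The summit at 19033095 lay 222 bp from a boundary of lncRNA:CR45940. A summit with a score of 60.9 stood 639 bp inside the lower boundary of nkd.

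The summits of nkd were spread over its length rather than gathered at 1 end. From the lower boundary its 4 equal parts held 6, 12, 8 and 14 of the 40 internal summits. The peak with the most summits, 7, ran from 19036409 to 19037157 with scores from 3.54 to 22.5. The median distance between neighbors was 375 bp, and the longest stretch of nkd without a summit was 4.92 kb. Many were weak. In nkd 19 of 45 (42.2%) had a score under 10, and 15 reached the median score of the list.

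For its length nkd was rich in summits. The 287 genes of 0.8 to 1.25 times its length had a median of 7 and a maximum of 82, and 93.7% of them had fewer than 45. At 9.84 per 10 kb it ranked 21 of 461 genes of at least 40 kb. The same rank was 173 for fz2 and 227 for fz, whose densities of 2.24 and 1.32 per 10 kb were above the median of 1.27 in these long genes. Over all protein-coding genes the median was 3.64 per 10 kb, and 8 of the 10 genes, fz and fz2 among them, were below it. In number, nkd ranked 60 of 13922.

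**Figure D3:**
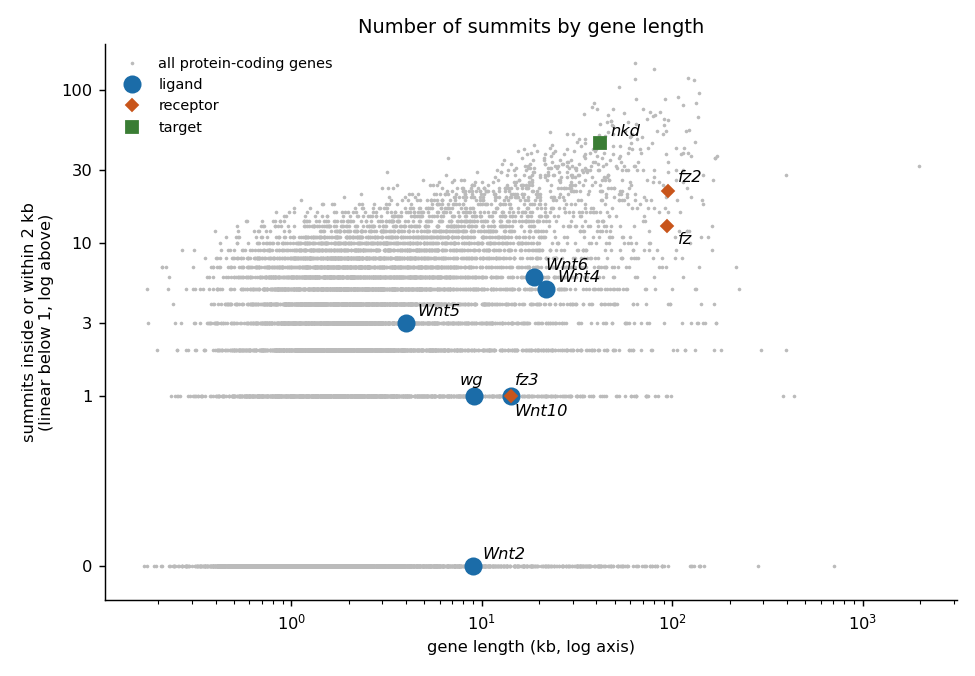
Summits inside or within 2000 bp of a gene (y axis, linear below 1 and logarithmic above) against gene length in kb (x axis, log scale) for 13922 protein-coding genes in gray and the 10 named genes in color. The point of nkd is near the upper edge for its length, fz and fz2 are within the range of long genes, and fz3 is drawn over Wnt10 at 1 summit.

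Beside genes of similar length, 7 of the 10 had fewer summits than the median, and the exceptions were nkd, fz2 and fz. The same held for 8 of the 24 other pathway genes described below. Wnt4, Wnt5 and Wnt6 were close to their medians, with 5, 3 and 6 summits beside 6, 4 and 7. In the strongest score, only fz2 and nkd of the 9 genes with a summit were above the median of genes of similar length. For Wnt10, Wnt6 and fz3 the share of such genes with a lower maximum was 2.98%, 4.65% and 2.20%.

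The other pathway genes, 24 chosen by role, had a higher median of the strongest score than the ligands, and the groups overlapped. Over the genes with a summit the medians were 160 and 33.1. Of the 23 with a summit, 16 had a strongest score above the 69.7 of wg and 7 had one below it. Of those 7, dsh and por, which encode Dishevelled and the Wnt acyltransferase, were below the ligand median of 21.9, with scores of 12.4 and 16.7. That ligand median counts Wnt2 as 0. At 20 of the 24 (83.3%) a summit lay within 500 bp of a boundary, beside 60.0% of all protein-coding genes. A summit inside or within 2000 bp was found at 23 (95.8%), beside 72.8%. The exception was wntD, a ligand gene of 1.15 kb, so 2 of the ligand genes outside the 2L cluster, Wnt2 and wntD, had none. Neither the 60.0% nor the 72.8% was matched for length. Among genes of similar length to each of the 24, 10.8% to 34.9% had no summit. The remaining Frizzled gene, fz4, had 3 summits with scores up to 62.0. The highest values were 453 at dnt, a Derailed-family receptor, 395 at arm, which encodes β-catenin, and 386 at lgs, which encodes the BCL9 homolog. The 4 nuclear genes, pan, lgs, pygo and gro, had strongest scores between 353 and 386. Whether the summits of the 24 genes lay closer to neighboring genes was not examined. For the 10 members, 51 of the 97 summits lay nearer to a boundary of another gene, nested and noncoding genes included, than to a boundary of the member. Medians of the strongest score were 136 for the 7 cytoplasmic genes and 115 for the 5 genes of ligand secretion and the extracellular space. The median was 111 for the 6 coreceptor and other receptor genes, dnt among them. Over the 23 genes the median was 160, beside 126 over all protein-coding genes with a summit and 62.7 over the 9 members with one. The latter is the summit of Wnt5 that lies 1 bp from Pgant7, and it was 33.1 with windows of 1000 bp and 19.6 with windows of 500 bp. Against genes of similar length, 11 of the 23 with a summit were above the median of the strongest score. In density, arm was highest of the 24 at 18.9 per 10 kb with 25 summits, above the 9.84 of nkd, followed by Notum, a feedback hydrolase gene, at 9.79 with 13. The list was not chosen independently of these data, and no test was made.

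**Figure D4:**
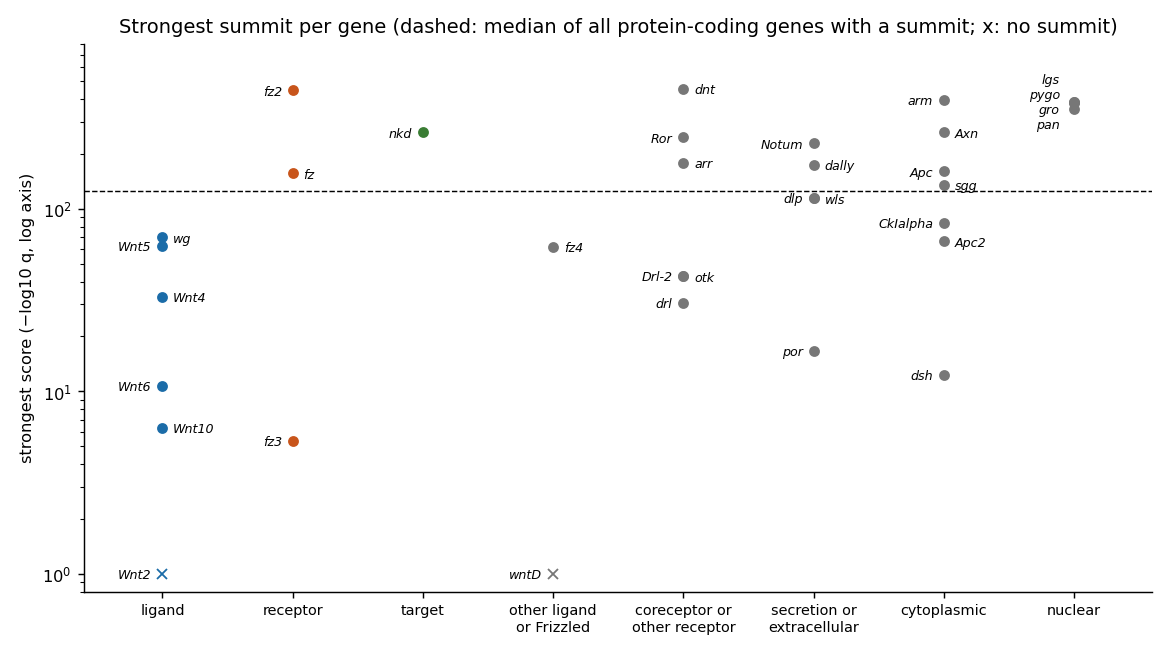
Strongest score per gene (y axis, log scale) by role in the Wnt pathway (x axis). Each point is 1 gene, a cross at the foot marks Wnt2 and wntD, which had no summit, and the dashed line is the median of 126 over all protein-coding genes with a summit: the ligand points are all below it, and the points of the nuclear genes are all above it.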

How the data were processed

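ATAC-seq was done on S2 cells in 10 libraries, 2 per dsRNA group. The authors deposited 1 list of 39806 summits in 15615 peaks, with a −log10 q value as the score. Build dm6, with DESeq2 1.26.0, deepTools 3.1.3, Bowtie2 2.3.5.1 and MACS2 2.1.0.20150731, appears in the submitters' processing notes, with no role for each. How reads were filtered or shifted is not given in the sources used here. The row names show that peaks were called on all libraries together. The number of value columns without a mapped sample was 0. Without replicates, intervals or counts per library, nothing was tested. Genes came from the RefSeq table of Release 6, the assembly of dm6, which holds no strand, exons or sequence. The design had start sites in view, and either boundary was used in their place. Density is summits per 10 kb of gene plus 2000 bp on each side. The share of genes lower than a member is among 13922 protein-coding genes of the major arms and chromosome 4. Of the 24 other pathway genes, 23 matched by symbol and 1 by synonym (wntD). The named genes were all members, the 3 highest of the other pathway genes and those without a summit, and neighbors that share a summit. Values for fz4, pan, pygo, gro, Notum, dsh and por, the density of arm, hemocyte genes, genes of at least 40 kb, stretches without summits, and the densities over all of 2L were added after values were seen. The members and lists were chosen with earlier results of these data known. Motif counts in promoters, which need sequence, were not run. The counting was tested on simulated data. Alternatives were gene windows of 0, 500, 1000 and 5000 bp, boundary distances of 250 and 1000 bp, keeping 1 summit for each peak, keeping scores of at least the list median, assignment to the nearest gene, and ligands outside the cluster. Python 3.11.15, numpy 2.4.6, pandas 2.3.3 and matplotlib 3.10.9 were used.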

Additional observations from a re-analysis of the deposited data

How the results depend on the processing

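No paired analysis was possible because peaks were called on pooled libraries, with no score per replicate. Of 73 values under the alternatives, 45 were within 1.5 times the reported one, 24 moved further and 4 changed sign. The 4 were the ligand minus receptor difference in median density, 0.03 per 10 kb as reported, which was -0.71 with gene bodies alone, -0.43 at 500 bp, -0.14 at 5000 bp and -0.23 for summits at or above the median score, so the 2 roles have no order in density. With gene bodies alone, the median per gene was 1.5 summits and 0.813 per 10 kb, the median strongest score was 19.6, and the ligand minus receptor difference in strongest score was -34.8, against -135 as reported. At 500 bp the median number was 1.5 and the median strongest score 19.6. At 1000 bp the latter was 33.1. These medians cover genes with a summit, whose number changed with the setting, while the ligand minus receptor difference counts genes without one as 0. With the strongest summit of each peak, the median per gene was 2.5 summits and 0.864 per 10 kb, and nkd kept 19 summits, more than 97.2% of genes of similar length. With summits at or above the median score, the median was 1 summit and 0.687 per 10 kb, the median strongest score was 113, 4 genes had a summit within 500 bp of a boundary, and nkd had 15 summits, more than 84.7% of genes of similar length. The excess of gaps over gene bodies in the 2L cluster, 3.13 per 10 kb, was 1.25 with the strongest summit of each peak and 1.37 with summits at or above the median score, both alternatives chosen after seeing the data.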

Other observations

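The genes nkd and fz2 lie 95.5 kb apart on 3L, and the interval between them held 47 summits, or 4.92 per 10 kb. Of these, 6 lay within 2000 bp of nkd or fz2 and are counted above. The strongest of the interval, with a score of 968, was at 19079363, far from both genes. Other protein-coding genes lie in the interval, among them Mkp3, Gem2 and CG14082, and its summits were not assigned to any of them.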
